A study of Homo sapiens with 5 samples.

Results

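The BG4 regions described here are those of chromosomes 4, 13 and 18 in LNCaP, a long-used human prostate cancer line that responds to androgen. They number 231 of the 3554 consensus regions of chromosomes 1 to 22, X and Y (6.50%), with 118 on chromosome 4, 50 on chromosome 13 and 63 on chromosome 18. A consensus region is a stretch formed by merging peaks that overlap by at least 1 bp and that holds peaks of at least 2 of the 4 BG4 replicates. Where the regions lie along these chromosomes, how wide they are and how strong their peaks are were not used to choose them. Support was used, since peaks of at least 2 lists were required. The chromosomes were chosen with their low density already known from an earlier look at the same files.

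The study mapped G-quadruplexes in LNCaP (LnCap in the labels) chromatin, cross-linked with formaldehyde and sonicated, and asked how they relate to enhancers. Its 5 samples are 4 BG4 pull-downs of 1 cell line, here replicates 1 to 4, and 1 input, for which no file was used here. The labels name no treatment, and whether the input was the background of the peak calls is not given in them. Each replicate has its own peak list on the hg19 build, with 6476, 1640, 3645 and 2144 peaks on chromosomes 1 to 22, X and Y. The labels do not say whether the pull-downs used separate cultures. The p-values then measure only the spread between these lists, which may be technical. Peak lists carry no expression, so the labelled cell type was not checked against markers.

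G-quadruplexes are stacks of guanine tetrads that form on single strands rich in runs of guanine, and BG4 is an antibody fragment that recognises the folded structure. Such runs are common in GC-rich promoters and in subtelomeric DNA, and are sparse in the AT-rich, gene-poor bands that fill much of chromosomes 4, 13 and 18. Chromosome 4 is a large chromosome with long gene deserts. Chromosome 13 is acrocentric: its short arm consists of satellite and ribosomal repeats, so mapped sequence begins well inside the chromosome. Chromosomes 13 and 18 are among the few human autosomes whose trisomy is compatible with live birth.

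The 3 chromosomes were gene-poor in the RefSeq gene table (GRCh38.p14, used only to count the genes of each chromosome). Chromosome 4 had 769 protein-coding genes, chromosome 13 had 338 and chromosome 18 had 270. Per Mb of the hg19 length between the first and the last peak of all lists, these gave 4.03, 3.56 and 3.48 genes, against 7.08 on the other 21 chromosomes together. In order from the lowest, chromosome 18 was the second, chromosome 13 the third and chromosome 4 the fourth of 24, and chromosome Y was the lowest.

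BG4 peaks on these chromosomes were sparse in every list. Replicates 1 to 4 had 1.09, 0.264, 0.652 and 0.369 peaks per Mb there, and 2.31, 0.586, 1.29 and 0.763 on the other chromosomes. The density ratio was 0.477 ± 0.022 (SD, n = 4 lists) and below 1 in 4 of 4 lists. Because the chromosomes were chosen with their low density known from the same files, its direction was set beforehand. The ratio is therefore a description, and its p-value lends it no support. The exact two-sided sign-flip permutation test over the 4 lists gave p = 0.13 (0.25 after Benjamini-Hochberg adjustment over 6 comparisons), which is the smallest p that 4 lists allow. No comparison of this design can therefore pass 0.05, and differences are read against the spread between lists.

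Chromosome 13 was the sparsest of the 3 and chromosome 18 the least sparse. The density against the other chromosomes was 0.380 ± 0.038 on chromosome 13, 0.468 ± 0.014 on chromosome 4 and 0.618 ± 0.052 on chromosome 18 (SD, n = 4 lists each). The ranges of the 4 lists did not overlap between any of the 3, with at most 0.407 on chromosome 13, 0.453 to 0.486 on chromosome 4 and at least 0.571 on chromosome 18. In consensus regions these are 0.527, 0.618 and 0.811 per Mb, against 1.26 per Mb on the rest. Low density was not particular to these chromosomes. In order from the lowest, chromosome 13 was the fourth, chromosome 4 the fifth and chromosome 18 the eighth of 24. Chromosomes Y (0.101), X (0.273) and 6 (0.454) were lower than all 3, and chromosome 2 (0.629) was near chromosome 4. Assembly gaps count in these lengths.

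Counted per gene instead of per Mb, the deficit was much smaller, and chromosome 18 lay on the other side. The 3 chromosomes together held 16.8 consensus regions per 100 protein-coding genes, against 17.8 on the others. Chromosome 4 had 15.3, chromosome 13 had 14.8 and chromosome 18 had 23.3, the fifth highest of 24 chromosomes. With peaks of single lists, the ratio of peaks per 100 genes to the other chromosomes was 0.892 ± 0.042 for the 3 together, 0.823 ± 0.024 for chromosome 4 and 0.755 ± 0.076 for chromosome 13, each below 1 in 4 of 4 lists. For chromosome 18 it was 1.26 ± 0.11 and above 1 in 4 of 4 lists (SD, n = 4 lists; exact two-sided sign-flip permutation test, p = 0.13 for each, 0.135 after Benjamini-Hochberg adjustment over 13 comparisons chosen after the data were seen). Each of these ratios is the density ratio rescaled by a factor that is the same in every list. The chromosomes were chosen with their density known, so these ratios are a description and their p-values lend them no support. Without the regions over a high local background described below, the ratio for chromosome 18 fell to 1.14 ± 0.08, above 1 in 4 of 4 lists. For the 3 together it was then 0.855 ± 0.051, below 1 in 4 of 4 lists.

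Over all 24 chromosomes, consensus regions per Mb went with genes per Mb, with a Pearson correlation of 0.96 and a Spearman correlation of 0.83. Without the 2 chromosomes farthest from the median gene density the values were 0.89 and 0.79. The points share the same 4 libraries and whatever base composition goes with gene density, so these values are a description. The plot of region density against gene density shows chromosomes 4, 13 and 18 at the low end of this trend.

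**Figure D1:**
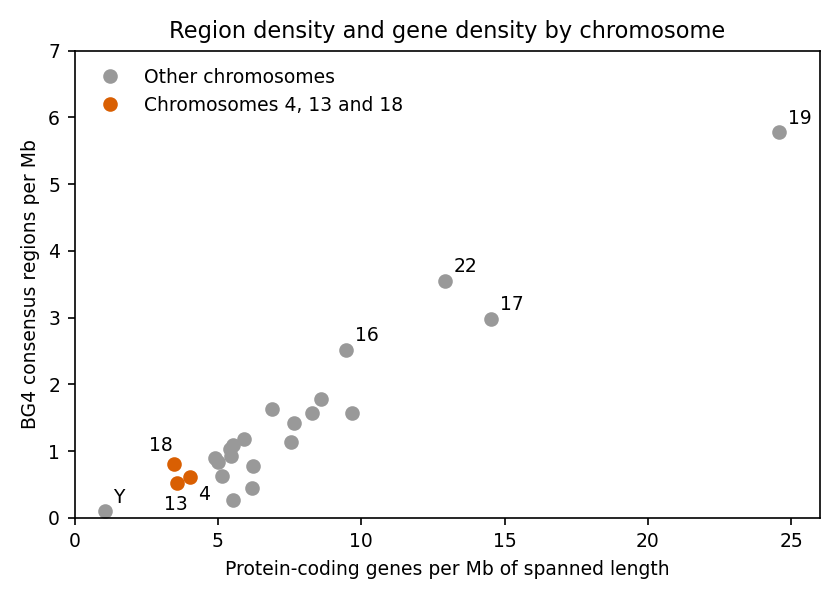
Consensus BG4 regions per Mb (vertical axis) against protein-coding genes per Mb (horizontal axis), 1 point per chromosome, both over the hg19 length between the first and last peak. Chromosomes 4, 13 and 18 (orange) sit at 3.48 to 4.03 genes per Mb with 0.527 to 0.811 regions per Mb, and only chromosome Y has fewer genes per Mb.

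The regions of these chromosomes were denser near the ends than inside. Of the 231, 56 (24.2%) lay within 5 Mb of the first or last peak of their chromosome, windows that make up 8.25% of the spanned length. The ends were set by the outermost peaks of these same lists. Each end window thus holds a peak by construction, which can raise the density at the ends. The size of this effect was not tested. The ends held 1.87 regions per Mb and the interior 0.525. In peaks of single lists the ratio of end to interior density in replicates 1 to 4 was 3.003, 4.13, 2.82 and 3.93, a mean of 3.47 ± 0.65 (SD, n = 4). It was above 1 in 4 of 4 lists (exact two-sided sign-flip permutation test, p = 0.13, adjusted 0.25).

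The same crowding was present on the other chromosomes, with a ratio of 2.69 ± 0.17 (SD, n = 4). The ratio on chromosomes 4, 13 and 18 was 1.29 ± 0.20 times that of the others, 1.114, 1.41, 1.111 and 1.504 in replicates 1 to 4 (exact two-sided sign-flip permutation test, p = 0.13, adjusted 0.25). Chromosome 18 went the other way. Its ratio was 1.53, 2.03, 1.63 and 2.33 in replicates 1 to 4, against 2.70, 2.92, 2.54 and 2.61 on the others. In density itself the ends of these chromosomes stayed below the ends of the others, at 1.87 against 2.89 consensus regions per Mb. Without the regions over a high local background described below, the relative ratio was 1.16 ± 0.20, above 1 in 3 of 4 lists (p = 0.375 in the same exact permutation test).

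Chromosomes 4 and 13 each had 1 crowded end. On chromosome 4 it was the first, the end of the short arm, with 20 of 118 regions within 5 Mb, against 4 within 5 Mb of the other end. By list, the first 5 Mb held 14.5%, 19.2%, 10.8% and 19.7% of the chromosome's peaks in replicates 1 to 4, in 2.62% of its length. The last 5 Mb held 3.86%, 5.77%, 1.67% and 6.06%, and the 2 ends did not overlap. The densest 2 Mb of chromosome 4 ran from 699309, where the first region begins, to 2538297 and held 15 regions, 12.7% of the chromosome, of which 5 were called in at least 3 lists.

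On chromosome 13 the crowded end was the last, at the tip of the long arm, with 16 of 50 regions. It held 24.7%, 27.8%, 32% and 20.7% of the chromosome's peaks in replicates 1 to 4, in 5.27% of its length. The first 5 Mb, which border the unassembled short arm and not a telomere, held 4 regions and 6.90% to 11.1% of the peaks. The densest 2 Mb began at 113655727 and ended with the last region at 115080061. They held 11 regions, 22% of the chromosome, but none of these was called in all 4 lists and 5 were called in 3. In order of the end to interior ratio of consensus regions, chromosome 13 was the second and chromosome 4 the fourth highest of 24. Chromosome 18 was the 19th.

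Chromosome 18 was more even at 5 Mb. Its first 5 Mb held 8 of 63 regions and its last 5 Mb held 4. The end to interior ratio of peaks was 1.88 ± 0.37 (SD, n = 4), against 4.56 ± 1.16 on chromosome 13 and 4.74 ± 1.74 on chromosome 4, and its highest list (2.33) lay below the lowest of either (2.59 and 3.23). Of the 8 regions at its first end, 4 lay within 107942 to 112468 over a very high local background. Without high-background regions, 4 remained there and 3 at the last end, of 56, and the ratio was 1.19 ± 0.21. The ratios depended on the window: with 2 Mb they were 3.88 ± 0.81 on chromosome 18, 7.87 ± 2.87 on chromosome 13 and 5.08 ± 1.45 on chromosome 4, and with 10 Mb they were 1.34 ± 0.32, 2.72 ± 0.92 and 3.57 ± 0.66. With lists of equal length chromosome 13 had 8.60 ± 5.16.

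**Figure D2:**
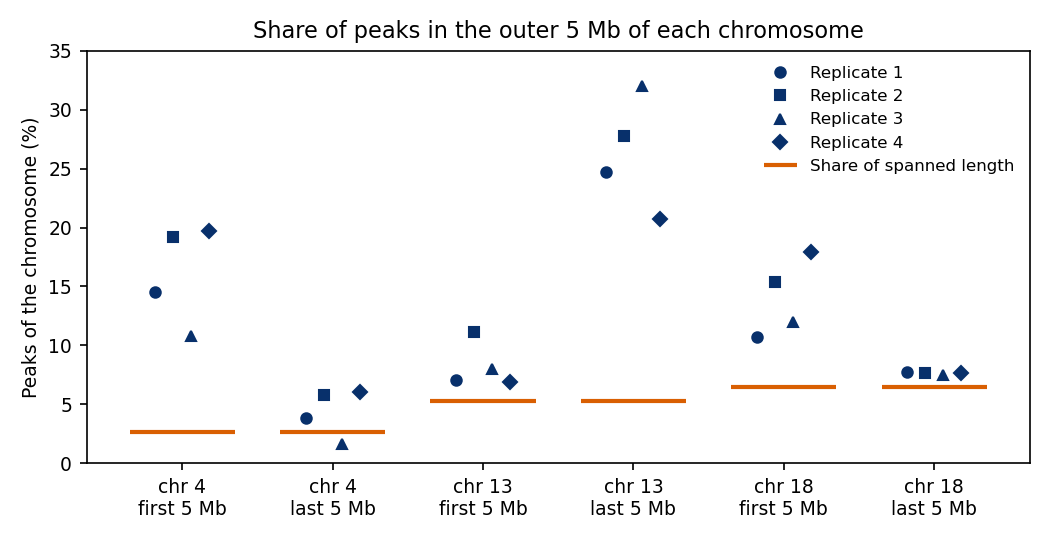
Share of a chromosome's peaks (vertical axis, percent) in its first and its last 5 Mb, with 1 symbol per BG4 replicate and an orange bar for the share of spanned length in that window. The first end of chromosome 4 (10.8% to 19.7%) and the last end of chromosome 13 (20.7% to 32%) lie above their bars in all 4 replicates. So do the first end of chromosome 13 (6.90% to 11.1%) and the first (10.7% to 17.9%) and last (7.46% to 7.77%) ends of chromosome 18, by smaller margins. The last end of chromosome 4 does not, with replicate 3 (1.67%) below its bar (2.62%).

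Support and width of members at the ends were near those of the interior, as a description. Of the 56 at the ends, 14 were called in all 4 lists (25%), against 37 of 175 in the interior (21.1%), and the median width was 439.5 bp against 448 bp. The median fold of their peaks, the summit's enrichment over local background in the authors' lists, was 8.12, 7.18 and 7.47 at the ends in replicates 1 to 3 and 7.31, 6.73 and 6.57 inside. For replicate 4 it was 6.73 at the ends and 6.94 inside. The direction thus differed between lists.

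Between the crowded stretches lay long intervals with no region. The longest was on chromosome 13, 25.01 Mb from 52.59 to 77.60 Mb, which is 26.4% of the chromosome's spanned length. Of the longest intervals of the 24 chromosomes it was the fourth in length and the third as a share of the span. Assembly gaps count as length in this order, and intervals were not separated by them. Replicate 1 had 1 peak inside it, replicate 2 none, replicate 3 had 1 and replicate 4 had 1. The next interval, 16.3 Mb from 80.06 to 96.33 Mb, also held 3 peaks, 2 of replicate 1 and 1 of replicate 3. From 52.59 to 96.33 Mb, 46.1% of the span, chromosome 13 had 3 regions, 6% of its total.

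The regions along this stretch had few lists and folds in the middle of each list, with median within-list percentiles of 34.96 to 64.5. The region on chromosome 13 from 52586275 to 52586609, which borders the longest interval, had folds of 7.48 in replicate 1, 5.71 in replicate 3 and 6.38 in replicate 4, on 9 to 13 reads at the summit. The region from 77601262 to 77601687, at its other border, had folds of 5.87 and 5.70 in replicates 1 and 3, on 10 and 9 reads. Those from 80055122 to 80055528 and from 96329136 to 96329444 were called in the same 2 lists, with folds of 8.04 and 6.57 and of 6.95 and 7.42. The remaining region, from 77900928 to 77901520, was called in replicates 1, 3 and 4. Regions called in all 4 lists were absent from 52.16 to 110.1 Mb of chromosome 13, an interval of 57.9 Mb.

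The longest intervals of chromosome 4 were shorter, and 2 of the 3 were empty in every list. From 57.30 to 68.27 Mb (10.96 Mb) and from 26.86 to 37.69 Mb (10.8 Mb), no list called any peak. The third, from 166.2 to 177.0 Mb, held 5 peaks of replicate 1 and 2 of replicate 3. In single lists the longest interval of chromosome 4 without a peak was 11.1, 31.2, 10.96 and 19.7 Mb for replicates 1 to 4, and the 2 shorter lists had the longer intervals. The region on chromosome 4 from 68265477 to 68265994, which ends the first of these intervals, lies over a background 211 times the genome level, and without it the interval was 14.4 Mb.

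The second interval of chromosome 4 was bordered by regions of unlike strength. The region from 26862103 to 26862500 was called in replicates 1 and 3, with folds of 6.97 and 4.83. The region from 37687853 to 37688488 was called in all 4 lists, with 15.8, 14.5, 15.2 and 12.6 in replicates 1 to 4. On chromosome 18 the longest interval was 9.14 Mb, from 34.41 to 43.55 Mb, with 1 peak of replicate 1 inside, and the next were 6.77 and 5.65 Mb. The map of regions along the chromosomes shows these intervals.

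**Figure D3:**
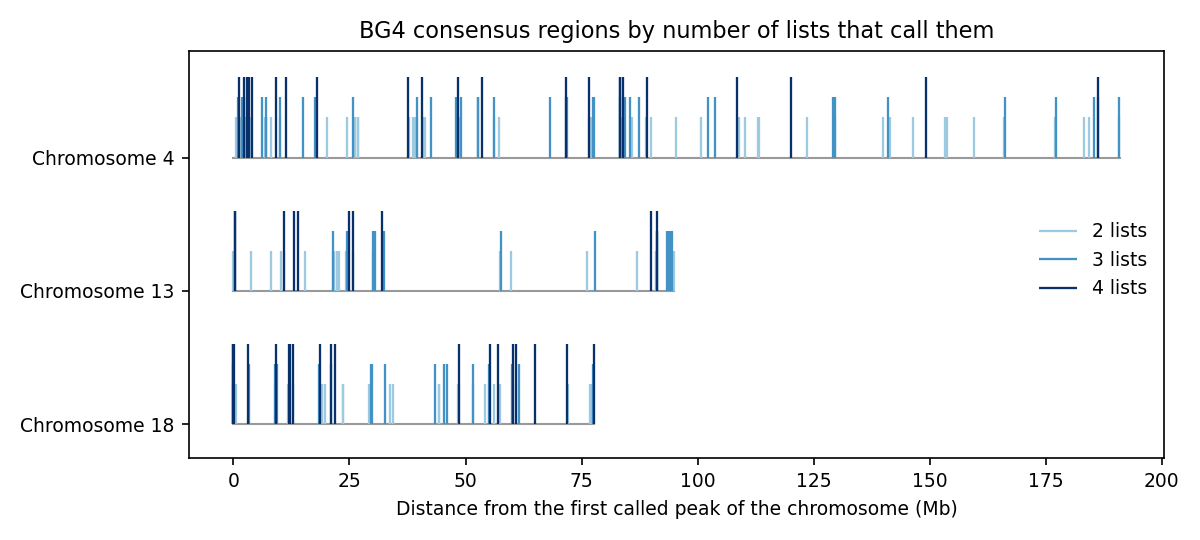
Consensus regions of chromosomes 4, 13 and 18 by their distance from the first called peak of the chromosome (horizontal axis, Mb), as vertical ticks whose height and shade give the number of lists (2, 3 or 4). Chromosome 4 is crowded in its first 5 Mb (20 regions) and chromosome 13 in its last (16 regions), and chromosome 13 has 3 regions in a stretch of 43.7 Mb.

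Away from the ends, chromosome 4 had a second concentration between 80 and 90 Mb, with 12 regions, 4 of them in all 4 lists, and none between 130 and 140 Mb. Chromosome 13 had 11 regions between 40 and 50 Mb and none between 60 and 70 Mb. Chromosome 18 had 4 to 12 regions in each of its 8 bins of 10 Mb. The median distance from a region to its nearest neighbour was 191.6 kb on the 3 chromosomes and 91.3 kb on the others. Neighbours within 100 kb were found for 82 of the 231 (35.5%), against 52.1% of the other regions.

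Support by the replicates was close to that of the genome. Merging all peaks gave 460 regions on these chromosomes, of which 231 (50.2%) were called in at least 2 lists, against 47.3% of all 7520 merged regions. At least 3 lists called 118 of the 460 (25.7%, against 25.5% of all) and all 4 called 51 (11.1%, against 11.8%). Chromosome 18 stood highest of the 3, with 19 of 63 consensus regions in all 4 lists (30.2%), against 10 of 50 (20%) on chromosome 13, 22 of 118 (18.6%) on chromosome 4 and 25.1% on the rest. The 229 regions of a single list were mostly of the longest list, with 170, 9, 39 and 11 from replicates 1 to 4.

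The lists did not contribute equally to the members. Replicates 1 to 4 had a peak in 225, 87, 196 and 123 of the 231, more for the longer lists. As a share of consensus regions these were 97.4%, 37.7%, 84.8% and 53.2% in replicates 1 to 4, and 96.1%, 43.03%, 85.9% and 54.3% on the other chromosomes. The ratio was 0.964 ± 0.061 (SD, n = 4) and below 1 in 3 of 4 lists (exact two-sided sign-flip permutation test, p = 0.375, adjusted 0.562). The commonest combination was replicates 1 and 3 alone, at 81 regions (35.1%, against 30.7% on the rest), followed by all 4 lists at 51 and replicates 1, 3 and 4 at 42.

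Replicate 1 missed 6 members, and 3 of these were among the 7 members with a background of at least 100 times the genome level. They were the regions on chromosome 4 from 49151004 and from 68265477 and the region on chromosome 18 from 18518751, each called in the other 3 lists. The remaining 3 were on chromosome 4 from 77819035, in the other 3 lists, and from 190767488, in replicates 2 and 4, and on chromosome 18 from 9102490, in replicates 3 and 4. These were named because they are few, after their values were seen.

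Region widths were close to those elsewhere. The median width was 443 bp, with quartiles of 365.5 and 551.5 bp, against 446 bp on the rest (367.5 and 559.5 bp). Members called in 2 lists had a median of 401 bp, in 3 lists of 453 bp and in 4 lists of 562 bp, against 391, 458 and 551 bp on the rest. A region of more lists is the union of more peaks. Median widths of single peaks were 387, 344, 340.5 and 337 bp in replicates 1 to 4, against 398, 327, 339 and 343 bp, a ratio of 1.003 ± 0.035 (SD, n = 4; above 1 in 2 of 4 lists, exact sign-flip permutation test, p = 0.875, adjusted 1). The widest member, and the only one over 1 kb, was on chromosome 4 from 103748499 to 103749526 with 1028 bp, against 40 over 1 kb among the 3323 on the rest. In regions of all 4 lists the summits of the 4 lists lay within a median of 83 bp of each other (n = 51), against 93 bp (n = 835).

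Over all members, the difference in peak strength from the rest was within the spread between lists. The median fold was 7.48, 6.77, 6.66 and 6.90 for replicates 1 to 4, and 7.48, 6.80, 6.81 and 6.69 on the rest. The ratio was 1.001 ± 0.022 (SD, n = 4), with replicate 1 equal, 2 lists below 1 and 1 above (exact two-sided sign-flip permutation test, p = 1). In the 51 regions of all 4 lists, against such regions on the rest, it was 1.059 ± 0.034 and above 1 in 4 of 4 lists (p = 0.13 in the same exact permutation test). The median number of reads at the summit, recovered from the deposited values, was 18, 15, 16 and 15 in replicates 1 to 4, against 19, 14, 16 and 15.5.

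The 3 chromosomes were not alike, however. On chromosome 18 the median fold was 8.12, 7.22, 7.13 and 7.48 in replicates 1 to 4, which is 1.08 ± 0.03 times the rest and above it in 4 of 4 lists. On chromosome 13 it was 6.88, 6.67, 6.13 and 6.38, which is 0.939 ± 0.036 times the rest and below it in 4 of 4 lists (SD, n = 4; exact two-sided sign-flip permutation test, p = 0.13 for each, adjusted 0.135). On chromosome 4 it was 7.36, 6.75, 6.17 and 6.84, 0.976 ± 0.049 times the rest and below it in 3 of 4 lists (p = 0.5 in the same exact permutation test, adjusted 0.5). By the median percentile of fold within a list, averaged over lists, chromosome 18 was the highest of 24 chromosomes and chromosome 13 the third from the bottom.

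**Figure D4:**
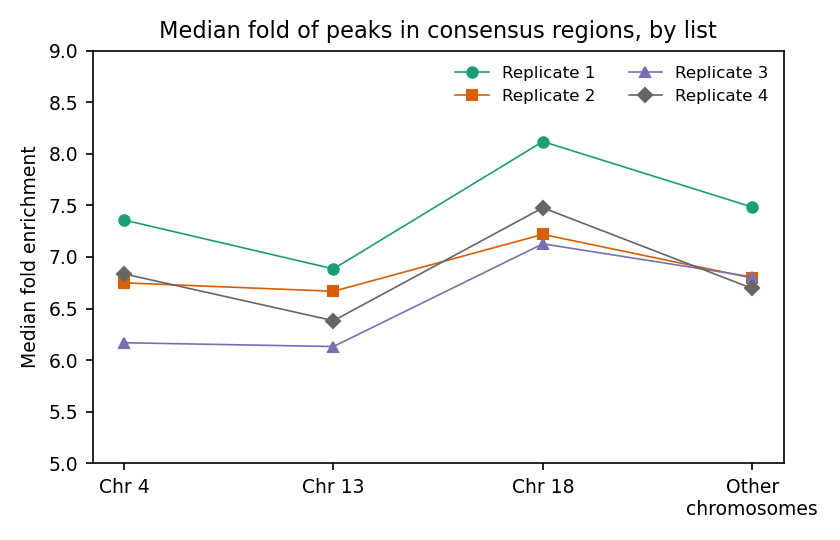
Median fold enrichment of peaks in consensus regions (vertical axis, which starts at 5) on chromosomes 4, 13 and 18 and on all others, with 1 symbol and line per BG4 replicate. In each of the 4 replicates chromosome 18 lies above the other chromosomes and chromosome 13 below them.

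Of the named regions, those with the highest median within-list percentiles of fold (99.4 and 99.3) were on chromosome 18. The next was on chromosome 4 (98.5). The region from 11980885 to 11981836 had folds of 18.2, 12.8, 18.8 and 18.1 for replicates 1 to 4, on 29 to 51 summit reads over a background 2.13 times the genome level. Replicate 2 was low and the other 3 were close together. The region from 12947626 to 12948286 had folds of 17.2, 14.9, 18.4 and 17.6, on 32 to 45 reads. The region from 12377195 to 12377815, between the former and the latter, had 18.5, 9.61, 11.8 and 11.7. These 3 regions thus lay within 1 Mb of each other.

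The other 2 of the 5 strongest on chromosome 18 lay on the long arm. The region from 65183940 to 65184501 had folds of 12.3, 12.2, 13.1 and 10.4, close to each other, over the genome background itself. It also borders the second longest interval of the chromosome. The region from 60382197 to 60382896 had folds of 15.9, 8.42, 11.3 and 11.4. In it replicate 1 was high and replicate 2 low.

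On chromosome 4, the strongest was the region from 37687853 named above. The region from 3957058 to 3957928, at the crowded end, had folds of 15.8, 13.9, 17.6 and 9.81 in replicates 1 to 4. The region from 9154190 to 9155051 had 15.8, 11.6, 13.2 and 15.4, and its lowest list still held 31 summit reads. The region from 186392229 to 186392718, near the far end, had 11.8, 10.04, 11.6 and 11.6, with replicate 2 below 3 near-equal lists. The region from 53578316 to 53578705 had 13.9, 8.22, 14.6 and 10.1. Backgrounds over these 5 ran from 1.49 to 3.28 times the genome level.

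The 5 strongest of chromosome 13 had median within-list percentiles of fold of 76.7 to 92.6, below all 5 of chromosome 4 (93.4 to 98.5) and of chromosome 18 (93.8 to 99.4). The first was the region from 20532582 to 20533177, with folds of 14.7, 8.35, 11.1 and 10.8 in replicates 1 to 4, on 13 to 27 reads. The region from 33160287 to 33160782 had 15.0, 9.18, 15.4 and 6.96, so replicates 1 and 3 were more than 1.5 times the other 2. The region from 20437546 to 20438097 had 9.80, 9.36, 8.68 and 6.29, and lay within 0.1 Mb of the first. The region from 52158000 to 52158707 had 8.55, 7.35, 9.13 and 8.12 over the genome background. The region from 45915277 to 45915914 had 12.02, 7.67, 8.32 and 8.20, with replicate 1 apart from 3 near-equal lists.

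The outermost regions differed in strength. The first on chromosome 4, from 699309 to 699644, had folds of 6.04 and 4.88 in replicates 1 and 2 alone, and the last, from 190970692 to 190971127, had 10.4, 7.16 and 6.77 in replicates 1, 2 and 4. On chromosome 13 the first, from 20207418 to 20207745, had 7.71 and 6.03, and the last, from 115079683 to 115080061, had 8.55 and 9.71, both in replicates 1 and 3 alone. The last region of chromosome 18, from 77793526 to 77794487, was the strongest of these. It had folds of 11.7, 9.33, 10.3 and 11.2, on 38 to 62 reads over a background 5.03 times the genome level.

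A small set of members stood apart in background. In 7 of the 231 (3.03%), against 26 of the 3323 others (0.782%), the median local background was at least 100 times the genome level of the list. These were 4 on chromosome 18 between 107942 and 112468, 1 on chromosome 18 from 18518751 to 18519603, and the 2 on chromosome 4 from 49151004 to 49151845 and from 68265477 to 68265994. The first 4 are neighbours in 1 short stretch. Neighbouring regions were not joined here or on the other chromosomes, so the 2 shares count regions and not separate places. Their backgrounds were 106 to 332 times the genome level, their summits held 191 to 378 reads, and their folds were 1.51 to 2.40. No other member had a fold under 3.06 in a list or a median background over 19.4 times. The first region of chromosome 18, from 107942 to 108499, is one of them, with folds of 1.59, 1.95, 1.84 and 1.76 in replicates 1 to 4.

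At a background of at least 5 times the genome level there were 16 members (6.93%), against 3.37% of the others. Their part in the calls was not tested, and the values without them follow. There were 215 members, and the density ratio was 0.457 ± 0.027. Peaks per 100 genes on chromosome 18 were 1.14 ± 0.08 times the rest. The end to interior ratio was 3.10 ± 0.61 and the ratio of median folds was 1.03 ± 0.02 (SD, n = 4 lists each). The difference in fold on chromosome 13 shrank to 0.963 ± 0.074 times the rest and was below it in 3 of 4 lists (exact two-sided sign-flip permutation test, p = 0.375), and on chromosome 18 it was 1.101 ± 0.037.

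**Figure D5:**
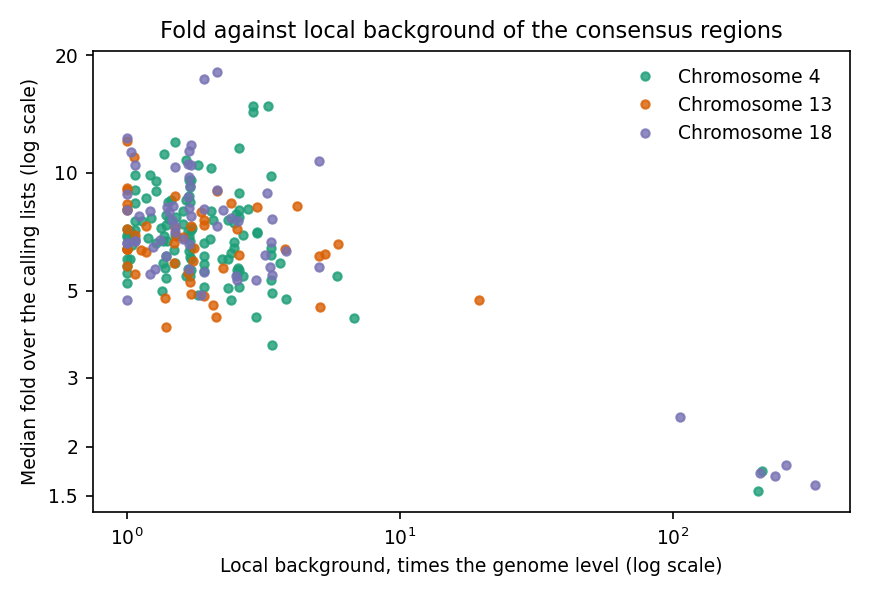
Median fold over the calling lists (vertical axis, log scale) against median local background as a multiple of the genome level of the list (horizontal axis, log scale) for the 231 regions, coloured by chromosome. The 7 regions at 106 to 332 times the genome level lie at folds near 2 or below, apart from all others.

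Genes, promoters and G4 motifs at these positions, and the sequences themselves, were not analysed here, because the files are on hg19 and the tables at hand are on GRCh38.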

How the data were processed

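BG4 pull-downs of LNCaP chromatin were sequenced beside 1 input. The submitters' processing notes list MACS2 2.1.1, Bowtie2 2.2.5, SAMtools 1.11, bcl2fastq 1.8.4 and hg19, per the labels; how they were run, and the sequencing depth, are unknown here. The authors deposited 1 narrow peak list per replicate, so peaks were not called on pooled reads. Each deposited list gives a score (not used), the fold ratio of the summit over local background, and the summit's −log10 p and −log10 q, of which the lowest q values were 1.30 to 1.37 on that scale. Fold was compared only within lists.

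Summit reads and background were recovered from the deposited fold and −log10 p, taken as MACS2 defines them, and a whole number of reads gave back the p of 100% of peaks within 0.001. The weakest summits held 6 or 7 reads and the median 14 to 16. Background is a multiple of the lowest of the list. In a region, a list's value is that of its peak of highest fold.

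Chromosome lengths run from the first to the last peak over all lists, assembly gaps included. Each list gave a ratio of members to other chromosomes, tested with an exact two-sided sign-flip permutation test over the 4 lists. Regions named are, per chromosome, the 5 called in most lists with the highest median within-list percentile of fold, the first and last, those bordering the 3 longest intervals, and the densest 2 Mb. Members, lists and tests were chosen with earlier results of these data known. The alternatives tried were stricter q values, equal list lengths, more lists per region, 50% overlap, other end windows, autosomes only, chromosome 13 without its first end, all peaks in place of those in consensus regions, −log10 q in place of fold, and each replicate left out. Comparisons per gene and per chromosome, and the removal of high-background regions, were added after seeing the data. Scripts were tested on simulated data and ran on Python 3.11.15 with scipy 1.17.1, numpy 2.4.6, matplotlib 3.10.9 and pandas 2.3.3.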

Additional observations from a re-analysis of the deposited data

Results flagged for a closer look

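Of 48 sets of 4 replicate values examined, 4 held a replicate far from the other 3, and chance marks about 1 set in 20. The median peak width of the members was 387 bp in replicate 1, against 344 bp in the nearest. The fold of the chromosome 4 region from 186392229 was 10.04 in replicate 2, against 11.6 in the nearest. The fold of the chromosome 13 region from 45915277 was 12.02 in replicate 1, against 8.32. The fold of the chromosome 18 region from 11980885 was 12.8 in replicate 2, against 18.1. The named regions were chosen for high fold, for which the rate of chance does not hold.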

How the results depend on the processing

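The density ratio (0.445 to 0.487), the end to interior ratio (2.42 to 5.19) and its ratio to the other chromosomes (1.09 to 1.59) kept their direction under all alternatives run. Members numbered 231, and 118 if 3 lists were required, 51 if all 4 were, and 105 once every list was cut to 1640 peaks. Leaving out each replicate gave 120 to 220, with 120 for replicate 1 and 149 for replicate 3. The longest interval was 25.01 Mb, and 57.9 Mb with lists of equal length or all 4 lists; without 1 replicate it was 25.01 to 25.3 Mb. The share of merged regions in at least 2 lists was 3.15 percentage points above the rest, 0.128 in at least 3 lists, and -4.36 to 3.40 without 1 replicate, the lowest without replicate 1. Fewer lists or peaks lower the number of members by construction. The sign of the difference in share is not set in this way, and without replicate 1 the share was 41.2% against 45.6% on the rest.

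Comparisons near 1 changed sides. The share of regions with each list was 1.01 times the rest with lists of equal length and 0.954 to 1.002 without 1 replicate. Peak width was 0.991 times at a −log10 q of at least 5, 0.99983 in all 4 lists and 0.983 to 1.04 without 1 replicate. Peak fold was 0.9903 times at a −log10 q of at least 3, 0.996 at 5, 0.996 with lists of equal length, 1.059 in all 4 lists and 0.985 to 1.03 without 1 replicate. Peak fold on chromosome 4 was 1.03 times where 3 lists were required and 1.13 where all 4 were, 1.005 at equal list length, 1.03 without replicate 1 and 1.01 without replicate 3, with a lowest value of 0.958 without replicate 4. The cause was not tested. Fold on chromosomes 13 and 18 kept its side on average under 11 alternatives each, but not in every list. Chromosome 13 was below the rest in 3 of 4 lists, not 4, at a −log10 q of at least 5, with lists of equal length and without high-background regions. Chromosome 18 was above the rest in 3 of 4 lists, not 4, at a −log10 q of at least 5. Of the 37 named regions, 33 were called in at least 2 lists at a −log10 q of at least 5 and 23 with lists of equal length. No paired analysis was possible because the 4 pull-downs have no second group to be paired with; members and the rest were compared within each list.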
